A study of Mus musculus with 3 samples.

Results

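Epithelial tumour cells that had spent 3 days in collagen I were compared with cells of the same tumours that had spent 3 days in Matrigel. The cells came from primary mammary tumours of 4 C3(1)-Tag mice of the FVB strain, aged 25 to 30 weeks with tumours of 20 mm. In this transgenic line the promoter of a rat prostate gene drives a viral large T antigen, which inactivates p53 and the retinoblastoma proteins in mammary epithelium, so all cells of both groups carry it. Freshly isolated tumour tissue of mice 1 to 4 was plated in collagen I, described as organoids, and in Matrigel, described as clusters, both in serum-free medium with insulin, transferrin and selenium and 2.5 nM FGF2. The collagen gels were opened with collagenase at 37 °C and the Matrigel gels with EDTA on ice, so the matrix and the way of releasing the cells cannot be told apart. A lipid-anchored barcode (MULTI-seq) marked the mouse and matrix of each cell, and both matrices shared 1 pool and 1 run of the 10x Genomics 3' chemistry. Cells of 4T1, an established mouse mammary carcinoma line grown on plastic, were in the same pool. Pools from day 0 (12 hours after plating, mice 1 to 4) and day 5, made the same way, served to ask whether the matrix difference changed with time. The day 5 cells in both matrices were of mice 1 to 3, with none of mouse 4.

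Cells counted as epithelial when they had at least 5000 UMIs (unique molecular identifiers, each standing for 1 captured transcript), at least 1 UMI of Epcam and no UMI of the macrophage genes Tyrobp and Fcer1g or the fibroblast collagens Col1a1 and Col3a1. This kept 2845 of the 3463 cells of the day 3 pool, out of 7620 cells in the series. There were 2238 collagen cells (386, 1028, 714 and 110 from mice 1 to 4) and 607 Matrigel cells (40, 134, 93 and 340). UMIs were summed per mouse and matrix, which gave 8 sums, and the mouse was the replicate that paired the 2 matrices.

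Fibrillar collagen I is the main protein of the stroma that surrounds invasive carcinoma, and mammary tumour fragments placed in it extend strands led by keratin 14-positive cells. Matrigel is a gel of basement membrane proteins, chiefly laminin and collagen IV, in which epithelium tends to keep rounded borders. Cells bind collagen through integrins such as alpha 2 beta 1 and laminin through others such as alpha 6 beta 4, and both classes signal to the actin cytoskeleton.

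The 8 sums held 1598818 UMIs (Matrigel, mouse 1) to 41813517 UMIs (collagen, mouse 2). Kept cells, pooled over mice of unequal cell numbers, had a median of 36478 UMIs in collagen and 42349 in Matrigel. Their median mitochondrial share was 4.06% in collagen and 2.87% in Matrigel. By mouse, median UMIs were higher in collagen in mice 1 and 2 and lower in mice 3 and 4. The mitochondrial share was higher in collagen in all but mouse 3 (3.77% against 3.89%). On the first 2 principal components (38.0% and 22.7% of the variance) both sums of mouse 4 stood apart on the first, and the Matrigel sum of mouse 1, the smallest, on the second, so results are given with and without these mice. The labelled cell type was checked on its markers: 9 epithelial markers summed to 4931 to 6261 CPM (UMIs of a gene scaled to the same total in every sum) in collagen and 4612 to 5873 CPM in Matrigel, and all 9 were detected. Epcam, the highest, had been used to choose the cells, and the other 8 summed to 3200 to 4546 CPM in collagen and 2925 to 4505 CPM in Matrigel. Of other cell types, 9 fibroblast markers summed to 21.5 to 36.6 CPM in collagen and 0.625 to 33.7 CPM in Matrigel, higher in collagen in all 4 mice, with Col1a1 and Col3a1 at 0 by the rule and Dcn the highest. The 9 macrophage markers summed to 8.45 to 10.7 CPM in collagen and 4.38 to 14.7 CPM in Matrigel, with Tyrobp and Fcer1g at 0 by the rule, and 3 neutrophil markers, led by S100a8, to 16.6 to 295 CPM in collagen and 4.47 to 611 CPM in Matrigel, with Csf3r at 0. No marker of any non-epithelial list passed the test below, but few had enough UMIs to be tested. These were 5 of the 9 fibroblast markers (median log2 fold change 1.02), 2 of the 9 macrophage markers and 1 neutrophil marker. No marker of dendritic, T and NK, B or fat cells was tested. A difference in carried-over cells could therefore hardly have been seen by this test. The day 3 pool shared 7 cell barcodes with the day 0 pool and 4 with the day 5 pool.

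Of 11965 genes tested, 190 were higher (1.59%) and 53 were lower (0.443%) in collagen, 2.03% in all, at an adjusted p under 0.05 (edgeR's quasi-likelihood test with the mouse as a block). The highest log2 fold changes under the naming rule belonged to contractile genes, Tagln (4.98) and Acta2 (3.73), then to the collagenase Mmp13 (3.11) and the cytokine Il11 (3.03). The lowest belonged to the prolactin receptor Prlr (-2.50), the sodium pump subunit Atp1b1 (-1.56) and the glutathione transferase Gsta4 (-1.43). Tests of this size lean on the pairing: without the mouse as a block 4 genes were higher (Moxd1, Postn, Actg2 and Nt5dc2) and 1 lower, a predicted gene (0.0334% higher, 0.00836% lower and 0.0418% in all). All 4 collagen sums lay above all 4 Matrigel sums for 331 genes (2.77%) and below them for 258 (2.16%). Moxd1 and Nt5dc2 are named here after their values were seen. Without mouse 1, 2, 3 or 4 the counts were 64, 103, 150 and 92 higher and 19, 30, 32 and 32 lower. Of the 74 genes past the threshold that are named below, 27 also passed without each of the 4 mice in turn, and 10 passed in none of these smaller fits. The median log2 fold change over all genes tested was 0.00047.

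**Figure D1:**
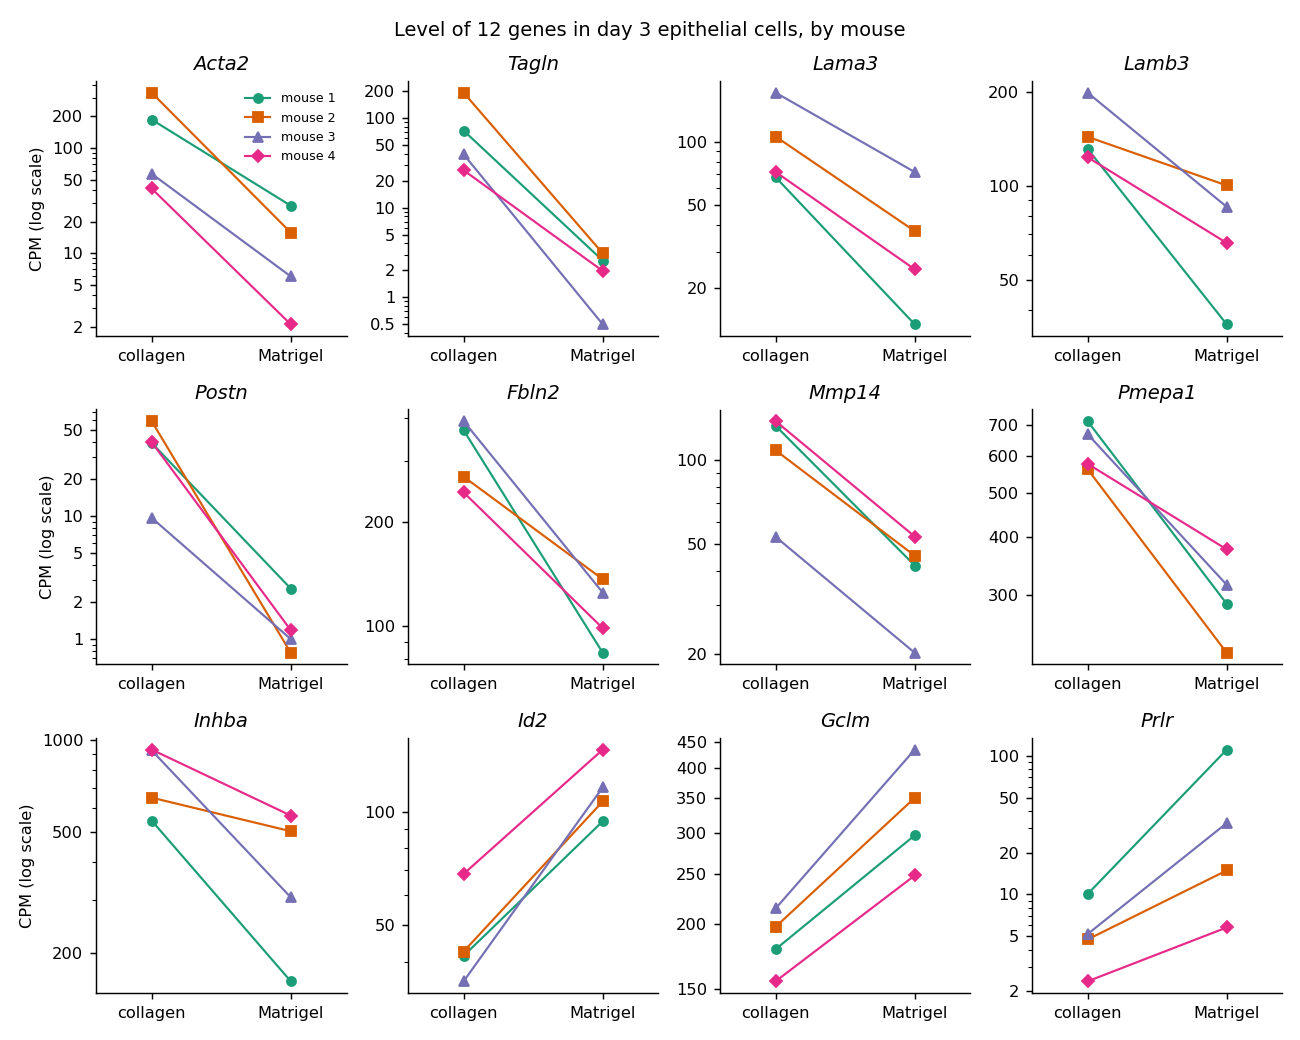
CPM (log axis) of 12 genes in the day 3 epithelial sums, collagen left and Matrigel right, with 1 line per mouse. All lines of the first 9 panels run down towards Matrigel and all lines of Id2, Gclm and Prlr run up.

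Of 10 tested genes of the contractile apparatus of myoepithelial cells, 6 were higher in collagen and none lower, with a median log2 fold change of 2.41 against 0.00047 over all genes. Acta2, smooth muscle alpha actin (chromosome 19, 34241090 to 34255590, minus strand, GRCm38), was at 187, 337, 57.0 and 41.2 CPM in collagen in mice 1 to 4 and at 28.3, 15.7, 6.0 and 2.10 CPM in Matrigel. Every collagen sum lay above every Matrigel sum (log2 fold change 3.73, SE 0.27, adjusted p = 0.000975). Tagln, the actin-binding protein transgelin (chromosome 9, 45929619 to 45936058, minus strand), was at 72.5, 192, 39.4 and 26.2 CPM in collagen and at 2.57, 3.10, 0.50 and 1.97 CPM in Matrigel. Its groups did not overlap either (4.98, SE 0.34, adjusted p = 0.000742). In collagen a single cell gave 85 of the 89 Tagln UMIs of mouse 4, so the value of that mouse rests on that cell. Actg2, enteric smooth muscle actin, was at 2.52 to 9.64 CPM in collagen and at 0 to 0.193 CPM in Matrigel, where mice 1 and 3 had no UMI. Acta2, Tagln and Actg2 also passed without each mouse in turn. Cnn1, calponin (3.14, adjusted p = 0.0108), the myosin light chain Myl9 (3.31, adjusted p = 0.0163) and the tropomyosin Tpm2 (0.78, adjusted p = 0.0399) were higher in all 4 mice. Cnn1 missed the threshold without mouse 4 (adjusted p = 0.0511), Myl9 without mouse 1 or 2 (0.0754 at most) and Tpm2 without mouse 1, 2 or 3 (0.148 at most).

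These transcripts sat in few cells. In collagen, mice 1 to 4 had 3127 Acta2 UMIs in 62 of 386 cells, 14195 in 183 of 1028, 1447 in 63 of 714 and 140 in 6 of 110, and a single cell gave 134 of the 140 of mouse 4. In Matrigel they had 44 UMIs in 2 of 40 cells, 81 in 17 of 134, 24 in 9 of 93 and 32 in 32 of 340, too few to read a spread over cells. With every cell thinned to 5000 UMIs, 145 of 2238 collagen cells had an Acta2 UMI, and of these 95.2% had Krt14, 83.4% the basal keratin Krt5, 73.1% Tagln and 10.3% the proliferation marker Mki67. Among the 2093 collagen cells without Acta2 the shares were 75.5% for Krt14, 4.06% for Krt5, 0.860% for Tagln and 32.6% for Mki67. These shares pool the mice, and 102 of the 145 cells were of mouse 2. In Matrigel 12 cells had Acta2, of which 75.0% had Krt14, 41.7% Krt5, 16.7% Tagln and 8.33% Mki67. Among the 595 Matrigel cells without it the shares were 81.5%, 4.71%, 0.672% and 39.8%. A list of 4 markers of pericytes, which also express Acta2, summed to 8.47 to 15.3 CPM in collagen and 5.94 to 16.9 CPM in Matrigel. Tagln was detected in 4.85% ± 3.38 of collagen cells and 0.780% ± 1.06 of Matrigel cells (SD, n = 4 mice), higher in all 4 mice (paired exact permutation p = 0.125, the smallest 4 pairs can give). In 4T1 cells, as a background, Tagln was found in 0.521% (1 of 192). Acta2 was found in 5.07% ± 4.46 of collagen cells and 2.50% ± 1.49 of Matrigel cells, higher in 3 of 4 mice (paired exact permutation p = 0.375). With cells of 3 or more UMIs of Acta2 and Tagln together left out, 2094 collagen and 598 Matrigel cells remained, and Acta2 had a log2 difference of 0.04, not past the threshold (adjusted p of 0.981), which follows in part from choosing the cells by these genes. Of the 10 list members 1 then passed, and over all genes 172 were higher and 60 lower. By mouse, 355 of 386, 926 of 1028, 704 of 714 and 109 of 110 collagen cells were left in, and 39 of 40, 131 of 134, 91 of 93 and 337 of 340 Matrigel cells. The sums alone do not tell more cells of this kind from more transcript in each of them, and this was not tested on the cells.

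**Figure D2:**
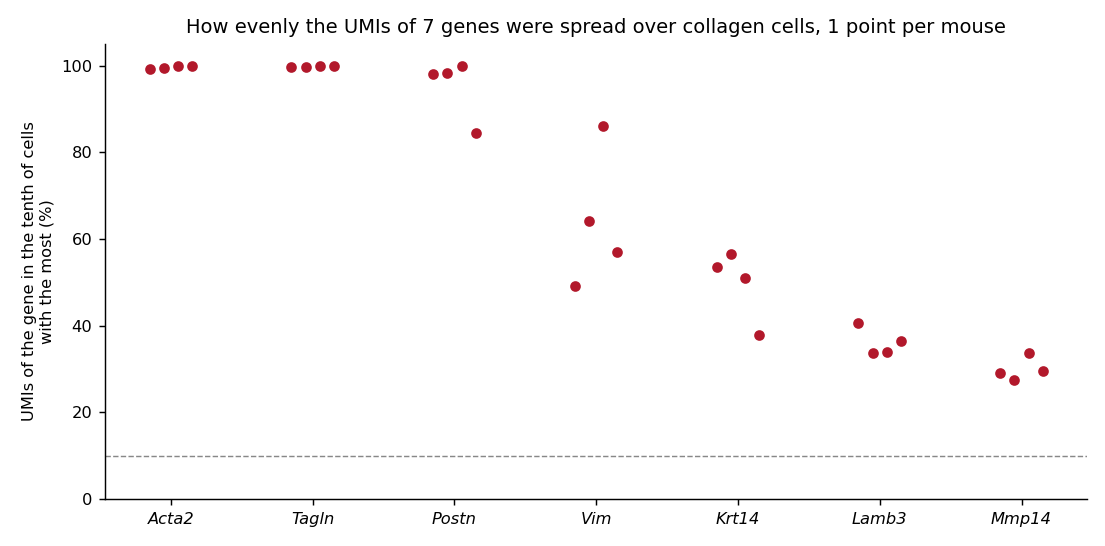
Percent of the UMIs of 7 genes held by the tenth of cells with the most UMIs of that gene, in the 4 collagen sums, 1 point per mouse; the dashed line at 10% marks an even spread. Acta2 and Tagln lie between 99.3% and 100% and Postn between 84.4% and 100%, while Lamb3 and Mmp14 lie between 27.5% and 40.6%. The Matrigel sums are not drawn, since Acta2, Tagln and Postn had 2 to 81 UMIs there.

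Contractile genes are classic targets of serum response factor, which binds the CArG box. RefSeq promoters (GRCm38.p6) were at hand for 4 of the 6 genes, Acta2, Cnn1, Myl9 and Tpm2. The 250 bases before each start were searched on both strands for the strict box, CC, 6 bases of A or T, then GG. Near matches, such as the stretch in the Acta2 window, were not counted. The windows of Acta2 and Tpm2 lie mostly within the annotated gene, so that they show little of the sequence upstream of it. The window of Myl9 held a box. Among all 32851 promoter windows of this length 1.47% held the box, and among the 173 windows of genes higher in collagen 0.578%. The box of Myl9 is shown with 10 bases on each side, its letters in capitals (chr2:156775293-156775322, plus strand, the box beginning 161 bases before the start).
Myl9: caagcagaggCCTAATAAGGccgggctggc

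Of 18 tested basement membrane genes 5 were higher in collagen and none lower (median 0.42), among them laminin chains of the kind that anchors stratified epithelium through hemidesmosomes. Lama3, the alpha 3 chain (chromosome 18, 12333819 to 12583013, plus strand), was at 67.9, 106, 172 and 71.9 CPM in collagen and at 13.5, 37.5, 71.7 and 24.7 CPM in Matrigel. The ranges just touched, with mouse 3 in Matrigel above mouse 1 in collagen, and the difference had the same sign in all 4 mice (log2 fold change 1.57, SE 0.15, adjusted p = 0.00316). Lamb3, the beta 3 chain (chromosome 1, 193207699 to 193343878, plus strand), was at 132, 144, 199 and 124 CPM in collagen and at 36.0, 100, 85.7 and 65.6 CPM in Matrigel, without overlap (1.08, SE 0.18, adjusted p = 0.0271). Lamb3 did not pass without mouse 1, 3 or 4 (0.0737 at most), while Lama3 passed without each mouse. Collagen VII, the anchoring fibril gene Col7a1 (1.43, adjusted p = 0.0102), and Col18a1 (0.79, adjusted p = 0.00923) also passed, and both did so without each mouse in turn. Without cells that had a UMI of a fibroblast marker Col7a1 had a log2 fold change of 1.21 that did not pass (adjusted p = 0.0672).

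Unlike the contractile genes, Lama3 and Lamb3 were found in many cells. Lama3 was found in 29.7% ± 7.96 of collagen cells and 13.3% ± 1.54 of Matrigel cells (SD, n = 4 mice), and Lamb3 in 45.8% ± 6.05 of collagen cells and 27.0% ± 4.99 of Matrigel cells. Each share was higher in collagen in all 4 mice (paired exact permutation p = 0.125 for each, the smallest possible). In 4T1 cells the shares were 1.56% for Lama3 and 3.65% for Lamb3. Without the cells of 3 or more Acta2 and Tagln UMIs, 5 members of the list still passed.

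Of 15 matricellular and elastic fibre genes, whose products are secreted into the stromal matrix, 5 were higher in collagen and none lower (median 0.68). Of 16 genes of collagen chains and the enzymes that build collagen 5 were higher and none lower (median 0.63). Postn, periostin (chromosome 3, 54361109 to 54391037, plus strand), was at 39.1, 58.8, 9.66 and 39.8 CPM in collagen and at 2.57, 0.774, 1.00 and 1.18 CPM in Matrigel. The groups lay far apart (log2 fold change 4.98, SE 0.32, adjusted p = 0.000659). Fbln2, fibulin-2, was at 369, 271, 392 and 244 CPM in collagen and at 83.5, 136, 125 and 98.4 CPM in Matrigel, also without overlap (1.50, SE 0.17, adjusted p = 0.00618). Tgfbi, a secreted adhesion protein induced by TGF-beta, was at 6.38 to 55.4 CPM in collagen and 0.750 to 8.79 CPM in Matrigel (2.14, adjusted p = 0.00781). Postn, Fbln2 and Tgfbi passed without each mouse in turn. Tenascin C (Tnc, 1.62, adjusted p = 0.0365) and biglycan (Bgn, 2.55, adjusted p = 0.0311) were higher in all 4 mice and did not pass without mouse 4 (adjusted p = 0.167 for Tnc and 0.109 for Bgn), nor without mouse 1 (0.110 for Tnc and 0.0754 for Bgn), and Tnc not without mouse 2 (0.111).

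Of the collagen processing genes, the prolyl hydroxylases P4ha1 (1.23, adjusted p = 0.00600) and P4ha2 (1.08, adjusted p = 0.0139), which stabilise the collagen triple helix, passed without each mouse. The proteinase enhancer Pcolce (0.72, adjusted p = 0.0246) and the fibrillar and microfibrillar chains Col5a1 (1.58, adjusted p = 0.0453) and Col6a1 (1.36, adjusted p = 0.0417) passed in the fit of all mice and in 1 of 4 fits without a mouse. Pcolce (0.107 at most) and Col5a1 (0.160 at most) did not pass without mouse 1, 2 or 4, nor Col6a1 without mouse 1, 2 or 3 (0.129 at most). Fibronectin, Fn1, was at 391, 319, 352 and 641 CPM in collagen and at 70.6, 201, 109 and 391 CPM in Matrigel (1.33, SE 0.27, adjusted p = 0.0444), mouse 4 in Matrigel lying above 3 of the collagen sums. Fn1 passed in none of the fits without a mouse, with adjusted p-values up to 0.124 (without mouse 3).

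Several of these genes are made mostly by fibroblasts in tissue, and fibroblast markers were higher in collagen in all 4 mice, as given above. Of 146 thinned collagen cells with Postn, 87 of them of mouse 2, 91.8% had Krt14, 67.1% Krt8 and 64.4% Acta2. Among the 2092 collagen cells without it the shares were 75.7%, 89.5% and 2.44%. Postn had a UMI in 8.18% ± 5.26 of collagen cells and 0.147% ± 0.294 of Matrigel cells (SD, n = 4 mice; paired exact permutation p = 0.125, the smallest possible), and the Matrigel share was below that of 4T1 cells (1.04%). Leaving out every cell with a UMI of a fibroblast marker kept 1614 collagen and 493 Matrigel cells, and 156 genes were then higher and 52 lower, 129 and 38 of them among the 190 and 53. Postn, Fbln2, Tgfbi, P4ha1, P4ha2 and Fn1 passed in these cells, and 5 did not: Tnc (log2 fold change 1.51, adjusted p = 0.0569), Pcolce (0.57, adjusted p = 0.0903), Bgn (1.69, adjusted p = 0.135), Col5a1 (0.97, adjusted p = 0.251) and Col6a1 (0.85, adjusted p = 0.164). The values of Bgn, Col5a1 and Col6a1 were over 1.5 times nearer 0 than in the fit of all cells, and those of Tnc and Pcolce were not. With Col1a1 and Col3a1 UMIs allowed, Bgn was at 0.81 (adjusted p = 0.573). Of the 74 named genes 59 passed without the fibroblast-marker cells, and Timp1 (0.72, adjusted p = 0.0691) and Tgfb1 (0.60, adjusted p = 0.0776) were also among those that did not. The part of carried-over fibroblast RNA in the other genes was not tested.

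Of 17 metalloproteinases and inhibitors 4 were higher in collagen and none lower (median 0.36), among them a pair of collagenases and an inhibitor. Mmp14, the membrane-bound collagenase MT1-MMP (chromosome 14, 54431612 to 54445364, plus strand), was at 133, 108, 53 and 138 CPM in collagen and at 41.7, 45.3, 20.2 and 53.1 CPM in Matrigel. Mouse 3 was lowest in both matrices, so the groups just overlapped while every mouse showed the difference (log2 fold change 1.41, SE 0.11, adjusted p = 0.00105), and it held without each mouse. Its share of thinned cells was 39.4% ± 13.1 in collagen and 16.5% ± 7.05 in Matrigel (SD, n = 4 mice), higher in all 4 (paired exact permutation p = 0.125, the smallest possible), against 13% of 4T1 cells. Mmp13, a secreted collagenase (chromosome 9, 7272514 to 7283331, plus strand), was at 15.8, 28.3, 44.5 and 59.5 CPM in collagen and at 0.642, 2.71, 21.5 and 1.25 CPM in Matrigel, where mouse 3 stood out (3.11, SE 0.64, adjusted p = 0.0490). Mmp13 did not pass without mouse 1, 2 or 4 (0.141 at most), nor with Col1a1 and Col3a1 UMIs allowed (1.74, adjusted p = 0.433).

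The inhibitor Timp1 was at 910, 767, 1453 and 318 CPM in collagen and at 317, 341, 710 and 226 CPM in Matrigel (1.05, SE 0.15, adjusted p = 0.0130), and the membrane protease Adam12 at 6.70 to 40.4 CPM in collagen and 0.580 to 13.3 CPM in Matrigel (1.95, adjusted p = 0.0163). Timp1 missed the threshold without mouse 1 or 2 (0.0548 at most) and Adam12 without mouse 1 or 4 (0.0683 at most). The kallikreins Klk6 (1.72, adjusted p = 0.0164) and Klk8 (1.58, adjusted p = 0.0438), secreted serine proteases, were among the 15 highest named genes. Klk6 did not pass without mouse 1 (0.0637), nor Klk8 without mouse 2, 3 or 4 (0.0933 at most). A further set left out cells with a UMI of the listed markers of other cell types, and held as few as 3 cells in a sum. The lists used were those of fibroblasts, pericytes, endothelial, T and NK, B, dendritic and neutrophil cells and of leukocytes in common. The macrophage, Schwann and fat cell lists were not used. In that set Timp1 was at 0.26 (adjusted p = 0.860) and Klk8 at 0.12 (adjusted p = 0.947). No member of the 11 plasminogen activation genes passed.

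Among the 173 promoter windows of the genes higher in collagen, 12 (6.94%) held the AP-1 site TGACTCA on either strand, against 4.46% of all 32851, and that of Mmp13 was among them. The window before its start is printed because it carries the site (capitals), which begins 35 bases before the start (RefSeq, GRCm38.p6, chr9:7272264-7272513, plus strand).
Mmp13: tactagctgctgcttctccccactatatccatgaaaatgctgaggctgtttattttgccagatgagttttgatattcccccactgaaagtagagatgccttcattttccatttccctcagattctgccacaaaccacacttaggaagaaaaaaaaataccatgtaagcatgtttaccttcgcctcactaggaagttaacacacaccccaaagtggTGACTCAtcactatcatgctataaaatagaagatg

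The receptors and adaptors of the matrix lists that passed the test were all higher in collagen. Of 17 integrins and matrix receptors 2 were higher and none lower (median 0.27), of 19 focal adhesion genes 2 (median 0.31) and of 25 actin cytoskeleton genes 2 (median 0.14). Over all genes tested 1.59% were higher. Itga2, the collagen-binding integrin alpha 2 chain, was at 153, 152, 146 and 48.0 CPM in collagen and at 64.9, 117, 72.2 and 28.5 CPM in Matrigel, with mouse 4 lowest in both (log2 fold change 0.83, SE 0.14, adjusted p = 0.0277). Syndecan-1, the proteoglycan receptor Sdc1, was at 387 to 520 CPM in collagen and 218 to 370 CPM in Matrigel (0.67, adjusted p = 0.0378). Fermt1, the integrin activator kindlin-1, was at 117, 98.8, 147 and 102 CPM in collagen and at 50.1, 48.9, 62.2 and 53.5 CPM in Matrigel, without overlap (1.10, SE 0.10, adjusted p = 0.00265). The other 3 were the adhesion adaptor Tns4 (1.04, adjusted p = 0.0215), the actin-binding proteins Cotl1 (1.06, adjusted p = 0.0139) and Tmsb4x (1.09, adjusted p = 0.00991), and none of them fell in any mouse. Fermt1, Cotl1 and Tmsb4x passed without each mouse. Itga2 did not pass without mouse 1, 3 or 4 (0.106 at most), Sdc1 without mouse 1, 2 or 3 (0.135 at most) and Tns4 without mouse 1, 2 or 4 (0.0889 at most). None of the 16 genes of the YAP and SRF target list passed. That list did not hold the 6 contractile genes that passed, a class given above as targets of serum response factor.

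TGF-beta and activin bind paired receptor kinases that act through Smad2 and Smad3, while BMPs act through Smad1 and Smad5, of which Id genes are textbook targets. Of 14 ligands and receptors 2 were higher in collagen and none lower (median -0.01), and of 15 target genes 5 were higher and none lower (median 0.43), while the BMP targets Id1 and Id2 were lower. Inhba, the activin A subunit (chromosome 13, 16011851 to 16031621, plus strand), was at 546, 649, 927 and 933 CPM in collagen and at 162, 503, 305 and 566 CPM in Matrigel, the groups overlapping between mice but not within them (log2 fold change 1.10, SE 0.22, adjusted p = 0.0432). Tgfb1 was at 45.4 to 91.4 CPM in collagen and 31.0 to 56.1 CPM in Matrigel (0.68, adjusted p = 0.0349). Inhba did not pass without mouse 1, 3 or 4 (0.147 at most), and Tgfb1 in none of the fits without a mouse (0.103 at most).

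Pmepa1, a Smad-induced inhibitor of the pathway (chromosome 2, 173224458 to 173276533, minus strand), was at 715, 563, 670 and 578 CPM in collagen and at 287, 225, 316 and 377 CPM in Matrigel, with no overlap (1.08, SE 0.13, adjusted p = 0.00720). It was found in 88.7% ± 3.37 of thinned collagen cells and 69.2% ± 9.63 of Matrigel cells (SD, n = 4 mice; paired exact permutation p = 0.125, the smallest possible), against 71.4% of 4T1 cells. The inhibitory Smad7 (0.75, adjusted p = 0.0343), Ldlrad4 (0.68, adjusted p = 0.0446), which dampens Smad activation, and the transcription factor Bhlhe40 (0.89, adjusted p = 0.0163) were higher in all 4 mice, and Tgfbi is given above. Pmepa1 passed without each mouse. Smad7 did not without mouse 1, 3 or 4 (0.113 at most), Ldlrad4 without any (0.135 at most) and Bhlhe40 without mouse 2 or 4 (0.0805 at most).

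Id2 (chromosome 12, 25093799 to 25097140, minus strand) was at 41.4, 42.5, 35.4 and 68.4 CPM in collagen and at 94.4, 107, 116 and 146 CPM in Matrigel, every collagen sum below every Matrigel sum (log2 fold change -1.34, SE 0.12, adjusted p = 0.00247). Id1 (chromosome 2, 152736251 to 152737410, plus strand) was at 153, 96.8, 81.0 and 151 CPM in collagen and at 267, 191, 362 and 333 CPM in Matrigel, again apart (-1.27, SE 0.20, adjusted p = 0.0194). Id2 passed without each mouse, and Id1 did not without mouse 4 (0.0683). The share of cells with Id2 was 17.7% ± 7.11 in collagen and 34.0% ± 6.19 in Matrigel (SD, n = 4 mice; paired exact permutation p = 0.125, the smallest possible), and 3.65% of 4T1 cells had it.

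**Figure D3:**
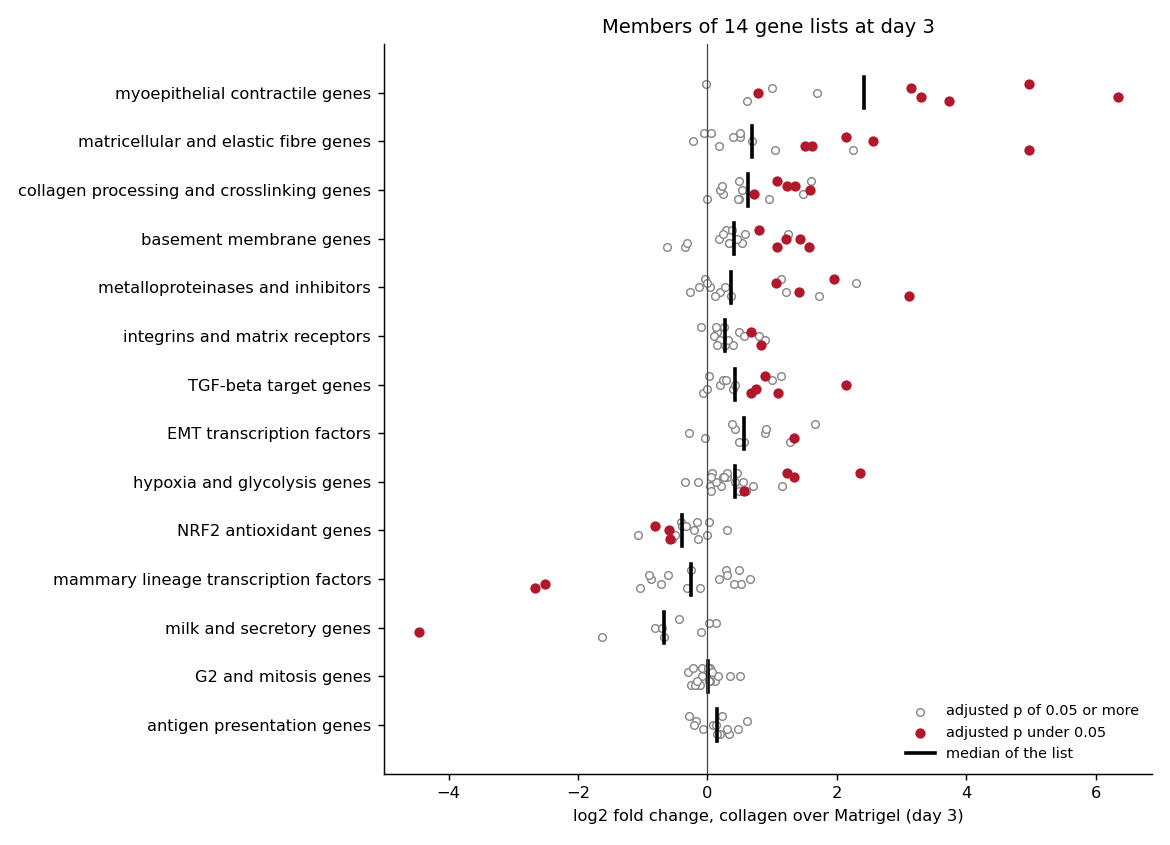
Log2 fold change (collagen over Matrigel, day 3) of every tested member of 14 gene lists, filled where the adjusted p was under 0.05, with a bar at the list median. Filled points lie right of 0 in the matrix, protease, integrin, TGF-beta and hypoxia lists and left of 0 in the NRF2, lineage and milk lists, while the G2 and mitosis and antigen presentation lists hold none.

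Of 11 tested transcription factors of the epithelial to mesenchymal transition 1 passed (median 0.56). Of the 11, 6 were higher in collagen in all 4 mice and 0 lower, against 13.6% and 12.4% of all genes. The gene that passed was Zeb2, a repressor of E-cadherin. It was at 28.1, 26.4, 26.7 and 18 CPM in collagen and 7.06, 12.6, 13.7 and 5.51 CPM in Matrigel (1.34 on the log2 scale, SE 0.19, adjusted p = 0.0119). Its groups did not overlap, and it passed without each mouse. Zeb1 did not pass (1.28, adjusted p = 0.0719), but did with DESeq2 (1.31, adjusted p = 0.0425), limma with voom (1.23, adjusted p = 0.0494), sums thinned to equal UMIs (1.87, adjusted p = 0.0476) and no filter on low counts (1.28, adjusted p = 0.00115). Nor did Twist1 (0.42, adjusted p = 0.659) or Snai2 (-0.04, adjusted p = 0.990), whose sign turns under other settings. Of 12 epithelial gatekeepers (median -0.29) 4 were lower in collagen in all 4 mice and 1 higher. The 1 that passed, Klf4, was higher in collagen (0.96, adjusted p = 0.0461), but did not pass without mouse 1, 3 or 4 (0.161 at most). E-cadherin, Cdh1, was at 37.1 to 75.1 CPM in collagen and 45.0 to 83.1 CPM in Matrigel, with a log2 fold change of -0.41 that did not pass (adjusted p = 0.159). Of 13 mesenchymal structural genes Fn1 alone passed (median 0.43), and 4 were higher in collagen in all 4 mice and 0 lower. No member of the 17 adherens junction and desmosome genes or the 6 simple keratins passed.

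Vimentin, Vim (chromosome 2, 13573927 to 13582826, plus strand), was at 1132, 562, 221 and 385 CPM in collagen and at 122, 218, 217 and 133 CPM in Matrigel. The lowest collagen sum, mouse 3, lay just above the highest Matrigel sum, and the difference did not pass (log2 fold change 1.50, SE 0.40, adjusted p = 0.106). It passed without mouse 3 (1.99, adjusted p = 0.0285), with all days in 1 fit (1.49, adjusted p = 0.0438), with sums thinned to equal UMIs (1.57, adjusted p = 0.0346) and with no filter on low counts (1.52, adjusted p = 1.16e-07). Vim was also higher in collagen at day 0 (1.77, adjusted p = 0.000782) and in the 2 mice of day 5 (1.71, adjusted p = 2.01e-05). Keratin 14, Krt14 (chromosome 11, 100203162 to 100207548, minus strand), was at 1312, 1760, 1258 and 1238 CPM in collagen and at 1884, 942, 1770 and 902 CPM in Matrigel, higher in collagen in 2 mice (0.08, SE 0.23, adjusted p = 0.896), a sign that turns without mouse 2 (-0.19) or mouse 4 (-0.04). Krt5 (0.86, adjusted p = 0.569), Trp63 (0.66, adjusted p = 0.448), Krt8 (-0.03, adjusted p = 0.897) and Krt18 (0.03, adjusted p = 0.925) did not pass. Krt5 passed without mouse 3 (1.74, adjusted p = 0.0227). Krt5 (2.60, adjusted p = 0.000278) and Trp63 (2.03, adjusted p = 0.00646) both passed without cells that had a UMI of the listed markers of other types. That set held only 3 Matrigel cells of mouse 1 and 11 of mouse 3, and also lacked every cell with an S100a8 UMI. Of 8 basal keratin and p63 genes only Krt17, a keratin of activated and basal epithelium, passed, at 445 to 705 CPM in collagen and 220 to 414 CPM in Matrigel (0.80, adjusted p = 0.0470), and not without mouse 1, 2 or 4 (0.172 at most). In the cells without the listed markers of other types Krt17 was at 1.96 (adjusted p = 0.00139).

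Per cell, Vim had a UMI in 59.3%, 38.0%, 19.9% and 43.6% of thinned collagen cells in mice 1 to 4 and in 20.0%, 14.2%, 24.7% and 21.8% of Matrigel cells. Mouse 3 went the other way (difference 20.1 percentage points, SE 9.17, paired exact permutation p = 0.25, where the smallest possible is 0.125). Krt14 was found in 79.8% ± 7.59 of collagen cells and 77.6% ± 10.3 of Matrigel cells (SD, n = 4 mice), a difference of 2.20 points (SE 2.91, paired exact permutation p = 0.75). Both genes were seen together in 42.5%, 25.0%, 13.3% and 40.9% of collagen cells and in 12.5%, 7.46%, 17.2% and 19.1% of Matrigel cells, a difference of 16.4 points (SE 7.23, paired exact permutation p = 0.25), with mouse 3 again reversed. Among collagen cells pooled over the mice, 69.3% of the 810 with Vim and 81.0% of the 1428 without it had Krt14. Mouse 4 went the other way, with Krt14 in 45 of 48 cells with Vim against 100 of all 110. In 13 macrophage-like cells of the pool, which should lack keratin, 1 (7.69%, exact 95% interval 0.195 to 36.0%) had Krt14, and in 4T1 cells 13.5%. Their median depth before thinning was 18790 UMIs for the macrophage-like cells and 69996 for 4T1. All 13 macrophage-like cells had Vim, so no cell type in the pool gave a background for it.

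**Figure D4:**
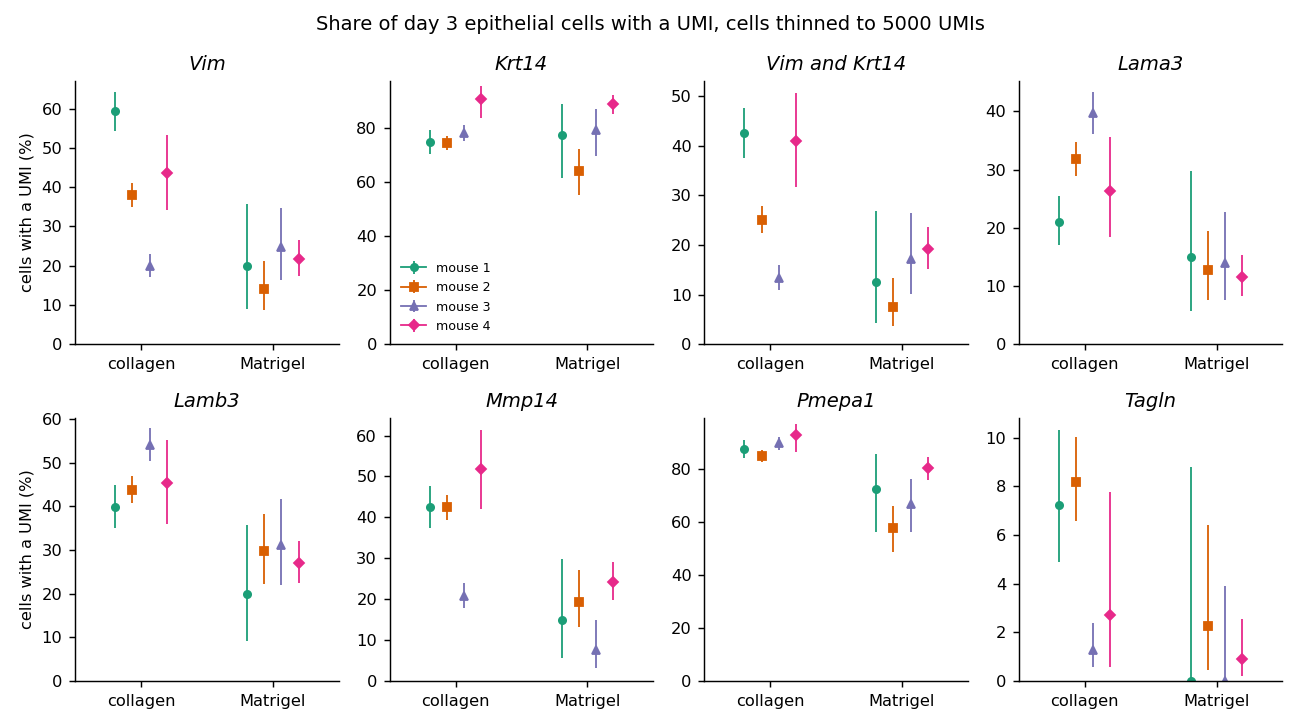
Percent of day 3 epithelial cells with at least 1 UMI after thinning to 5000 UMIs per cell, by mouse, collagen left and Matrigel right; bars are exact 95% binomial intervals and cover counting error only. Lama3, Lamb3, Mmp14, Pmepa1 and Tagln are higher in collagen in each mouse, Vim in all but mouse 3, and Krt14 lies between 64.2% and 90.9% throughout.

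Of 25 hypoxia and glycolysis genes 4 were higher in collagen and none lower (median 0.43). Slc16a3, the lactate exporter MCT4 (chromosome 11, 120948480 to 120960868, plus strand), was at 145, 53.4, 52.1 and 59.8 CPM in collagen and at 15.4, 19.9, 12.2 and 7.94 CPM in Matrigel, with mouse 1 far above the rest and no overlap (log2 fold change 2.35, SE 0.26, adjusted p = 0.00618). It held without each mouse. The angiogenic factor Vegfa was at 22.7 to 50.9 CPM in collagen and 8.72 to 21.1 CPM in Matrigel (1.34, adjusted p = 0.0294), and the glucose transporter Slc2a1 at 49.5 to 122 CPM in collagen and 36.3 to 71.9 CPM in Matrigel (0.56, adjusted p = 0.0344). P4ha1, given above, was the fourth. Vegfa did not pass without mouse 1, 3 or 4 (0.0959 at most) and Slc2a1 without any mouse (0.123 at most). Of 27 oxidative phosphorylation genes 1 was lower, the complex IV-associated Ndufa4 (-0.46, adjusted p = 0.0380), and not without mouse 1, 2 or 4 (0.151 at most).

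NRF2 is the transcription factor of the response to oxidants and electrophiles, and acts at antioxidant response elements. Of 15 tested NRF2 genes none was higher and 3 were lower (median -0.39). Gclm, the modifier subunit of the enzyme that begins glutathione synthesis (chromosome 3, 122245557 to 122270732, plus strand), was at 179, 197, 214 and 155 CPM in collagen and at 297, 351, 434 and 248 CPM in Matrigel, without overlap (-0.82, SE 0.09, adjusted p = 0.00630). Gclm passed without each mouse, but not without cells that had a UMI of the listed markers of other types (-0.32, adjusted p = 0.695). It was found in 54.4% ± 5.71 of thinned collagen cells and 69.7% ± 2.06 of Matrigel cells (SD, n = 4 mice; paired exact permutation p = 0.125, the smallest possible), and in 38.5% of 4T1 cells. The catalytic subunit Gclc (-0.59, adjusted p = 0.0392) and the thioredoxin reductase Txnrd1 (-0.58, adjusted p = 0.0276) were lower in all 4 mice and passed in none of the fits without a mouse (0.144 at most for Gclc and 0.105 for Txnrd1). Gsta4, a glutathione transferase for lipid aldehydes, was at 34.6, 79.6, 99.8 and 10.3 CPM in collagen and at 88.0, 153, 373 and 30.2 CPM in Matrigel, lower in each mouse on levels that differ widely between mice (-1.43, SE 0.16, adjusted p = 0.00600).

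The Gclm promoter window is printed for its match to the core of the antioxidant response element (TGACNNNGC or TGAGNNNGC, either strand), here on the minus strand and shown in capitals as read on the plus strand, beginning 134 bases before the start (RefSeq, GRCm38.p6, chr3:122245307-122245556, plus strand). The core is a common string, found in 23% of all promoter windows, in 22.5% of those of genes higher in collagen and in 2 of 4 windows of the NRF2 genes that passed.
Gclm: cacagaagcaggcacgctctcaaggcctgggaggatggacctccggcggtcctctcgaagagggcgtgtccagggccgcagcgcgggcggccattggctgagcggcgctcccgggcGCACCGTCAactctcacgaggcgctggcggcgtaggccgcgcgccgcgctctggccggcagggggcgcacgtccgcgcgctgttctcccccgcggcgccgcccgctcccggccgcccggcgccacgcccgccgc

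Of 17 mammary lineage factors 2 were lower in collagen and none higher (median -0.25), and of 9 milk and secretory genes 1 was lower (median -0.67). The 3 that passed belong to the secretory luminal lineage and differed widely between mice. Prlr, the prolactin receptor (chromosome 15, 10177238 to 10349180, plus strand), was at 10.0, 4.72, 5.16 and 2.36 CPM in collagen and at 111, 14.9, 32.7 and 5.77 CPM in Matrigel, lower in every mouse while the groups overlapped (log2 fold change -2.50, SE 0.31, adjusted p = 0.00851), and it held without each mouse. Elf5, the transcription factor of the alveolar lineage (chromosome 2, 103411688 to 103450989, plus strand), was at 5.08, 3.54, 5.6 and 1.18 CPM in collagen and at 70.0, 10.4, 42.0 and 1.38 CPM in Matrigel (-2.67, SE 0.40, adjusted p = 0.0150). Mice 1 and 3 carried most of the Matrigel Elf5, and it missed the threshold without mouse 1 (0.0764) or 3 (0.0670). Lactoferrin, Ltf, followed the same order, at 0 to 1.38 CPM in collagen and at 86.1, 4.26, 30.5 and 0.262 CPM in Matrigel (-4.46, adjusted p = 0.0283), and passed in none of the 3 smaller fits in which it could be tested (0.119 at most). Prlr had a UMI in 2.40% ± 1.34 of thinned collagen cells and 12.1% ± 11.5 of Matrigel cells (SD, n = 4 mice; paired exact permutation p = 0.125, the smallest possible), and in 0 of 192 4T1 cells, whose exact 95% upper limit is 1.90%.

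Other genes at the lower end included tight junction and transport genes. Atp1b1 was at 17.0, 34.3, 34.7 and 14.7 CPM in collagen and at 87.3, 73.5, 84.2 and 45.2 CPM in Matrigel, without overlap (-1.56, SE 0.19, adjusted p = 0.00851). Of 15 tight junction genes 1 was lower, Marveld3 (-1.15, adjusted p = 0.0276), and the junction-associated Cgnl1 (-0.80, adjusted p = 0.0111) and Sorbs2, a scaffold of actin and adhesion complexes (-1.14, adjusted p = 0.0102), were lower in all 4 mice. Further low genes were the small heat shock protein Cryab (-1.07, adjusted p = 0.0128), the only 1 of 16 heat shock genes, the stem cell factor Kitl (-0.94, adjusted p = 0.0475) and Ogfrl1 (-1.38, adjusted p = 0.0365). Atp1b1 and Sorbs2 passed without each mouse. The others did not in at least 1 fit, Marveld3 without mouse 2 or 4 (0.0735 at most), Cgnl1 (0.0521) and Cryab (0.0754) without mouse 1, and Kitl (0.160 at most) and Ogfrl1 (0.135 at most) without mouse 1, 3 or 4. Without cells that had a UMI of the listed markers of other types, Kitl was at 0.01 (adjusted p = 0.998), Atp1b1 at -0.91 (adjusted p = 0.194) and Cryab at -0.67 (adjusted p = 0.383).

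Of 20 chemokine, cytokine and acute-phase genes 1 was higher, Csf2, and 1 lower, Ccl5 (median -0.03). Csf2, which encodes GM-CSF, was at 2.33, 3.49, 10.0 and 1.77 CPM in collagen and at 0, 0.580, 0.50 and 0.0656 CPM in Matrigel (log2 fold change 3.77, adjusted p = 0.0102). Ccl5, a chemokine for T cells and monocytes, was at 30.7, 21.7, 73.3 and 8.25 CPM in collagen and at 128, 41.0, 155 and 10.4 CPM in Matrigel (-1.18, SE 0.22, adjusted p = 0.0380). Il11, a cytokine of the gp130 family induced by TGF-beta, was at 151, 58.0, 42.8 and 5.30 CPM in collagen and at 9.63, 6.38, 2.25 and 3.21 CPM in Matrigel, its difference smallest in mouse 4 (3.03, SE 0.43, adjusted p = 0.0128). Csf2 did not pass without mouse 3 (0.0554) or with Col1a1 and Col3a1 UMIs allowed (1.72, adjusted p = 0.198), Ccl5 without mouse 1, 2 or 3 (0.0878 at most) and Il11 without mouse 1 or 2 (0.0754 at most). Of 18 interferon response genes Usp18 (1.01, adjusted p = 0.0343) and Zbp1 (1.11, adjusted p = 0.0396) were higher. Usp18 passed in none of the fits without a mouse (0.119 at most), and Zbp1 did not without mouse 1, 2 or 4 (0.123 at most). Among the 15 highest named genes were also the neuronal stathmin Stmn2 (2.44), the actin-associated Pdlim4 (2.29), the junctional adhesion molecule Jam2 (2.14), the transcription factor Sox5 (1.84) and the IGF carrier Igfbp4 (1.71), each higher in all 4 mice.

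The lists of cell cycle genes and of most stress responses held no gene past the threshold. Over all genes 2.03% passed, so lists of this size may hold none, and no lack of a difference is read from them. No member passed among 20 G2 and mitosis genes (median 0.01), 20 S phase genes (-0.07), 15 p53 targets, 18 unfolded protein response genes, 19 ATF4 genes, 27 cholesterol and fatty acid genes or 13 antigen presentation genes. Mki67 was at 95.9, 127, 150 and 139 CPM in collagen and at 164, 87.1, 153 and 169 CPM in Matrigel (log2 fold change -0.13, adjusted p = 0.771), a sign that turns without mouse 1 (0.07). Of 20 immediate early genes, which also answer to dissociation, Jun was higher (0.62, adjusted p = 0.0320), and of 24 Wnt pathway genes the receptor Fzd1 (0.83, adjusted p = 0.0317), and neither passed without any mouse left out (0.111 at most for Jun and 0.120 for Fzd1). In all, 25 of the 41 gene lists had a member past the threshold, and 7 had a lower member. Since 2.03% of all genes passed, some lists would hold a member at that share alone. A single member, such as Jun or Fzd1, is not read as a change of its list.

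Whether the matrix difference itself had changed since day 0 was tested as an interaction, with a block for each mouse and day. Of 12984 genes 195 had a larger and 297 a smaller log2 fold change in collagen at day 3 than at day 0 (3.79% in all), but 4 and 15 without the block and 4 and 11 without mouse 1. Each day was its own pool, and each difference was taken within a pool. Of the 190 genes higher in collagen at day 3, 176 were tested at day 0, where 91 were also higher and 5 lower, and 12.9% of all genes tested at day 0 were higher. Of the 53 lower genes 50 were tested, with 26 also lower and 2 higher at day 0, and 12.7% of all genes tested at day 0 were lower. The interaction passed in the direction of the day 3 difference for 29 of the 190 and 11 of the 53 genes, and against it for 2 and 3. Over all genes 1.50% had a larger and 2.29% a smaller log2 fold change at day 3. The 190 and 53 genes were chosen by the same day 3 sums that enter the interaction. An excess in the day 3 direction is therefore built in, and no conclusion is drawn from it.

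Among the genes with a higher log2 fold change at day 3 than at day 0 were Tagln (log2 fold change 1.77 at day 0, interaction 3.20, adjusted p = 0.00815), Fn1 (-0.59 at day 0, interaction 1.92, adjusted p = 0.0286), Inhba (-0.21 at day 0, interaction 1.31, adjusted p = 0.0464) and Tmsb4x (-0.25 at day 0, interaction 1.35, adjusted p = 0.0112). Acta2 (3.62 at day 0, interaction 0.12, adjusted p = 0.932) and Mmp14 (1.43 at day 0, interaction -0.02, adjusted p = 0.969) had interactions that did not pass. The lineage and milk genes that passed at day 3 had not passed at day 0, namely Elf5 (0.90 at day 0, interaction -3.54, adjusted p = 0.0277), Prlr (0.62 at day 0, interaction -3.09, adjusted p = 0.0124) and Ltf (0.24 at day 0, interaction -4.69, adjusted p = 0.0387). Ccl5 changed sides: it was higher in collagen at day 0 (2.54, adjusted p = 0.000116) and lower at day 3 (interaction -3.71, adjusted p = 0.000464).

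More genes of all kinds passed at day 0 than at day 3, 25.6% against 2.03% of those tested, and the counts of the lists below are to be read beside that share. All 13 antigen presentation genes were higher in collagen at day 0 and none at day 3, and for 7 of them the change passed. Of 18 interferon response genes 15 were higher at day 0 and 2 at day 3, with 6 changes passing, among them that of Zbp1 (3.05 at day 0, interaction -1.94, adjusted p = 0.00581). Of 15 NRF2 genes 13 were lower at day 0 and 3 at day 3, and the difference lay nearer 0 at day 3 for 7 by the interaction, including Gclm (-1.64 at day 0, interaction 0.83, adjusted p = 0.00581). Of 20 G2 and mitosis genes 15 were higher at day 0 and none at day 3, where 1 change passed. At day 5, where 2 mice could be paired, 4.01% of all genes tested were higher in collagen and 1.86% lower (5.87% in all). Of the 190 genes 189 were tested there, with 115 also higher and 1 lower, and of the 53 genes 21 were also lower and none higher. For the difference between days 3 and 5 no gene passed (0 of 12984, with 1053 at an unadjusted p under 0.05), and without mouse 3 the counts were 5 and 8.

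**Figure D5:**
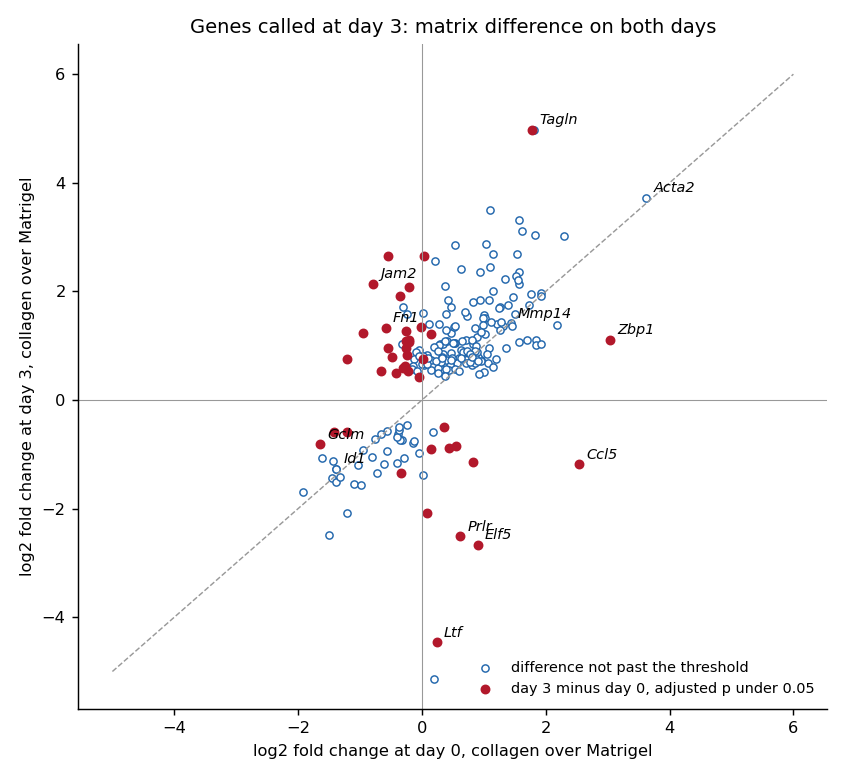
Log2 fold change (collagen over Matrigel) at day 0 on the x axis and day 3 on the y axis for the genes past the threshold at day 3 that were tested on both days, filled where the difference between the days had an adjusted p under 0.05; the dashed line marks equality. Acta2 and Mmp14 lie near the line, Tagln above it, and Ccl5, Elf5, Prlr and Ltf at lower right.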

How the data were processed

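Single-cell UMI counts of the day 3 pool were analysed, with the pools of days 0 and 5 for the change over time. The authors deposited unnormalised UMI counts, and all 39668312 entries of their matrix were whole. Their deposited annotation also gives each cell's mitochondrial share as a fraction of its UMIs, computed by the authors in a way not given in the sources used here. Per the submitters' processing notes, Cell Ranger 3.0.2 and Scanpy 1.4.4 were used with GRCm38/mm10; roles and annotation are not given in the sources used here. Day, mouse and matrix came from the authors' deposited cell annotation, whose D1 was taken as day 0 by inference. No doublet caller was run.

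Sums of the kept cells were tested with edgeR 4.0.16 (R 4.3.3): TMM scaling, filterByExpr, quasi-likelihood F test, Benjamini-Hochberg over 11965 genes, common dispersion 0.0247. The mouse number pairs the sums because both cultures came from the same animal per the labels; deviations from group means correlated at 0.406, 0.543, 0.490 and 0.810 within mice 1 to 4. No 2 sums of a matrix were alike within counting error (chi-square over its degrees of freedom at least 7.58, at most 62.3). CPM of single genes use the TMM-scaled total of the UMIs of the tested genes in a sum. CPM summed over cell type markers use all UMIs of the sum. Interactions used 21 sums of at least 20 cells. Shares of cells used Python 3.11.15, NumPy 2.4.6 and SciPy 1.17.1 after thinning each cell to 5000 UMIs; figures used matplotlib 3.10.9. DESeq2 1.42.0 and limma 3.58.1 (log2 of CPM plus 5) were alternatives. The tests were tested on simulated data.

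Named genes were, among genes past the threshold with at least 20 CPM and 1 sign in all 4 mice, the 15 highest and 15 lowest (predicted genes and those for ribosomal proteins or on the mitochondrial genome left out), up to 6 members of each of 41 gene lists by p, and 12 state markers; the text gives a selection, and 1 member of the basement membrane list is not reported here. The comparison, the gene lists and the genes were chosen with earlier results of these data known. Coordinates are from GENCODE vM21 (GRCm38).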

Additional observations from a re-analysis of the deposited data

Results flagged for a closer look

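In 18 of 176 groups of 4 mice 1 sum lay apart from the other 3 by Dixon's ratio at its 95% critical value, where chance gives about 1 in 20. In collagen, mouse 1 was high for Col7a1 (19.7 CPM), P4ha1 (30.9 CPM) and Slc16a3 (145 CPM), mouse 2 for Krt14 (1760 CPM), mouse 3 for Ndufa4 (1476 CPM), and mouse 4 for Tnc (103.7 CPM), Adam12 (40.4 CPM) and Gclc (52.1 CPM) and low for Itga2 (48.0 CPM) and Zeb2 (18 CPM). In Matrigel, mouse 2 was high for Bgn (6.58 CPM) and Klf4 (122 CPM), mouse 3 for Mmp13 (21.5 CPM), and mouse 4 for P4ha2 (26.4 CPM) and Adam12 (13.3 CPM) and low for Klk8 (13.4 CPM), Krt8 (465 CPM) and Krt18 (667 CPM). Both sums of mouse 4 also stood apart on the first principal component.

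For 21 named genes the log2 fold change at day 3 minus that at day 0 had an adjusted p under 0.05 (edgeR's quasi-likelihood test). It was above 0 for Actg2 (6.76), Csf2 (4.31), Tagln (3.20), Jam2 (3.02), Fn1 (1.92), Klf4 (1.51), Tmsb4x (1.35), Vegfa (1.34), Inhba (1.31), Fzd1 (1.06), Jun (0.91), Gclm (0.83), Gclc (0.83) and Txnrd1 (0.63). It was below 0 for Ltf (-4.69), Ccl5 (-3.71), Elf5 (-3.54), Prlr (-3.09), Sorbs2 (-1.96), Zbp1 (-1.94) and Id2 (-0.99).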

How the results depend on the processing

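With no replicate block 4 genes were higher and 1 lower in collagen, against 190 and 53 with it, and 4 and 15 against 195 and 297 for day 3 minus day 0. Other settings that moved the counts by over 1.5 times were no filter on low counts (648 higher and 266 lower; 647 and 491 for day 3 minus day 0; 57 and 117 for day 3 minus day 5), DESeq2 (326 and 171), all days in 1 fit (146 lower), limma with voom (103 lower), equal weight per cell (25 lower) and at least 10 CPM in 4 sums (34 lower). Leaving out each mouse in turn, which also leaves fewer degrees of freedom, gave 64 to 150 higher and 19 to 32 lower, 4 to 83 and 11 to 95 for day 3 minus day 0, and 0 to 5 and 0 to 8 for day 3 minus day 5. Another setting, chosen after seeing the data, left out cells with a UMI of the listed markers of other cell types (below, other cell types' markers). The macrophage, Schwann and fat cell lists were not used for it. It kept 386 collagen and 177 Matrigel cells, as few as 3 in a sum. It gave 59 higher and 8 lower, with 20 of the 74 named genes past the threshold. Leaving out the tenth of cells with the most UMIs, also chosen after seeing the data, gave 125 higher. In the cells without other types' markers 58 of the 74 could be tested, and the log2 fold change was over 1.5 times nearer 0 for 6 and further from 0 for 5. With equal weight per cell, on log2 of CPM plus 5, it was over 1.5 times nearer 0 for 13. The Krt14 share differed by -0.573 to 3.73 points without a mouse. The sign changed for 5 genes near 0 and for Kitl, which was past the threshold. Snai2 was at 0.10 without the block, 0.0063 with DESeq2, 0.23 with voom, 0.45 with thinned sums, 0.22 with equal weight per cell, -0.61 to 0.82 without a mouse (above 0 without mouse 1, 0.029, or 3), 0.54 without fibroblast-marker cells, 1.68 without other cell types' markers, 0.41 without the deepest cells and 0.051 with Col1a1 and Col3a1 allowed. Krt14 was at -0.19 to 0.29 without a mouse (below 0 without mouse 2 or 4, -0.040), -0.0026 without fibroblast-marker cells and -0.060 without cells of 3 or more Acta2 and Tagln UMIs. Krt8 was at -0.089 to 0.011 without a mouse, 0.032 without fibroblast-marker cells and 0.24 without other cell types' markers, Krt18 at -0.050 to 0.12 without a mouse, Mki67 at -0.36 to 0.075 without a mouse and 0.024 without other cell types' markers, and Kitl at 0.014 without those marker cells, against -0.94 in all cells. Beyond what the construction of a setting shows, the cause was not tested. The smallest sum, Matrigel of mouse 1 with 40 cells, limits the precision of low genes.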
